A study of Mus musculus with 220 samples.

Results

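C3H/HeJ and CBA/J are related inbred strains of mice, and the liver transcripts of 4 mice were compared, 2 with a C3H/HeJ mother and 2 with a CBA/J mother, picked by their strain label from 220 mice of 96 strains. C3H/HeJ is known for a missense variant of Tlr4 that leaves its product unable to signal, whereas CBA/J has a working Tlr4. All 4 mice were F1 females whose C57BL/6J father carried transgenes for human CETP and APOE-Leiden, the sites of which were unknown but the same in every cross. They ate chow for 8 weeks and a high-fat, cholesterol-rich Western diet for 16 weeks, and the liver was taken at 24 weeks of age. Every mouse therefore carried 1 C57BL/6J copy of each gene, so the C3H/HeJ offspring had 1 defective and 1 working copy of Tlr4 and the CBA/J offspring had 2 working copies. The strains differ at many genes other than Tlr4, and a difference between them cannot be assigned to any 1 of these genes from 4 mice.

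TLR4 is the receptor through which macrophages and other cells sense lipopolysaccharide (LPS) from the wall of gram-negative bacteria, some of which reaches the liver from the gut through the portal vein. LBP carries LPS to CD14, which hands it to the complex of TLR4 with MD-2 (the product of Ly96), and the adaptors MyD88, TIRAP and TRIF (the product of Ticam1) pass the signal to NF-kB and IRF3 and so to chemokine and cytokine genes. Cholangiocytes are the epithelial cells that line the bile ducts. They make keratins, claudins and surface proteins such as EpCAM that hepatocytes make little of, so that in RNA of whole liver such transcripts mostly report on ducts. In whole tissue, more cells of a type and more RNA per cell cannot be told apart.

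One Affymetrix array was hybridised per mouse, and levels are given as log2 of the normalised signal, so that a difference of 1 is a 2-fold change. No detection calls were used here. The medians of the 4 arrays lay between 3.48 and 3.50, and a level near or below them may be background, in which case the difference of that gene may be larger than the values show. The numbers in the mouse labels were 550 and 551 for C3H/HeJ and 572 and 974 for CBA/J, and what they track is not given. The C3H/HeJ mice were close to each other, with a root mean square difference of 0.208 over the 45037 probe sets, the 9th lowest of 162 pairs of mice of the same strain, and the CBA/J mice differed by 0.236, the 41st lowest. The C3H/HeJ mice were over 2-fold apart in 49 probe sets and over 4-fold in 2, and the CBA/J mice in 182 and 13. Ifi202b was at 3.44 in C3H/HeJ mouse 1 and 7.66 in mouse 2. Of 8 genes whose 220 values lay on both sides of a gap of at least 1 with at least 20 mice on each side, Ifi202b was the 1 gene that placed the C3H/HeJ mice on opposite sides, and 0 did so for the CBA/J mice. The hepatocyte products Alb, albumin, and Apoe did not pass the test between the strains, with differences of 0.07 (95% interval -0.13 to 0.27) and -0.02 (-0.16 to 0.12). H2-Ea, a class II gene whose transcript C57BL/6J lacks and both strains make, was at 8.34 and 8.90 in C3H/HeJ and at 8.23 and 8.22 in CBA/J, against 2.80 in C57BL/6J mice.

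The livers of the strains differed in a limited set of transcripts, led by genes of bile duct epithelium that were higher in C3H/HeJ and by Ctse, Colec10 and Meox2, which were lower. Ifi202b was also called lower, but its C3H/HeJ mice were at 3.44 and 7.66. With limma, 1 mean per strain and the spread of the 211 mice of all 87 strains with 2 or more mice, 347 of 17097 genes (2.03%) passed a Benjamini-Hochberg adjusted p of 0.05. Of these, 216 (1.26%) were higher and 131 (0.766%) lower in C3H/HeJ. Over 2-fold differences were found for 127 of the higher and 45 of the lower genes, and over 4-fold differences for 34 and 5. The mice of the strains did not overlap in 345 of the 347 called genes, and in 48% of all genes. Among probe sets, 566 of 45037 (1.26%) were called. The number of called genes was 84 with CBA/J mouse 2 left out, 122 without C3H/HeJ mouse 1, 126 without C3H/HeJ mouse 2 and 216 without CBA/J mouse 1, and all 347 kept their direction in each of these fits. A fit without 1 mouse mostly has a larger SE, so a gene can lose its call in it although its difference is unchanged. An exact permutation test of 2 against 2 mice cannot give a two-sided p below 0.333, so single genes were tested in the model alone. With the spread of the 4 mice alone, the moderated fit called 474 genes, of which 259 were among the 347.

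**Figure D1:**
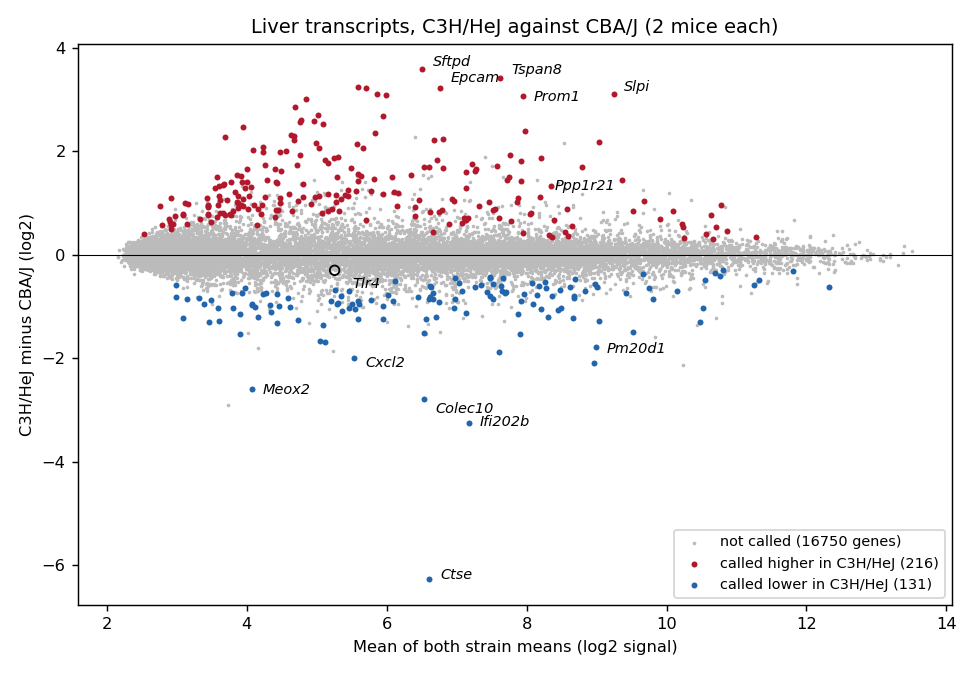
Each point is a gene, the x axis gives the mean of both strain means in log2 signal and the y axis the difference between C3H/HeJ and CBA/J in log2, with 216 genes called higher in C3H/HeJ in red, 131 called lower in blue and 16750 not called in grey. Ctse lies farthest from 0 at -6.27, the rises reach 3.58 (Sftpd), and Tlr4, ringed, lies at -0.30.

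Set among the other crosses, the pair took a place below the middle. Between the classical inbred strains with 2 mice each, 153 pairs gave from 114 (129X1/SvJ and LP/J) to 8458 called probe sets, with a median of 1010, and C3H/HeJ and CBA/J were the 41st pair from the fewest. Against the 16 strains other than CBA/J, C3H/HeJ had a median of 1869 called probe sets, and 3 of these pairs had fewer than 566. Against the 16 strains other than C3H/HeJ, the median of CBA/J was 704.5, and 7 pairs had fewer. These pairs share mice and were not tested against each other.

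C3H/HeJ was the strain farther from the rest in most of the higher genes. Its distance from the median of the other strains exceeded that of CBA/J in 179 of the 216 genes called higher, whereas CBA/J was the farther strain in 74 of the 131 called lower. Among all 96 strain means, C3H/HeJ was the highest in 52 and the lowest in 15 of the called genes, and CBA/J was the highest in 30 and the lowest in 15.

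Of all the gene lists examined, the cholangiocyte list held the most calls. Of the 14 measured genes of the cholangiocyte list, 10 were called higher in C3H/HeJ and 0 lower, against 1.26% of all genes called higher. All 14 were higher in both C3H/HeJ mice than in both CBA/J mice, a pattern found with C3H/HeJ higher in 25.9% of all genes, and the median difference was 2.00 against 0.01 over all genes. The list was drawn up with earlier results of these data known.

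The tetraspanin gene Tspan8 was at 9.41 and 9.26 in C3H/HeJ and at 6.32 and 5.51 in CBA/J, a difference of 3.42 ± 0.78 (SE; limma adjusted p = 0.0052). All 4 of its probe sets were called higher. Epcam, which encodes the adhesion molecule EpCAM of simple epithelia, was at 8.40 and 8.35 against 5.28 and 5.01, a difference of 3.23 ± 0.60 (adjusted p = 0.00024 in limma), in 1 of its 2 probe sets. Prom1, the gene of the membrane protein CD133 of biliary progenitor cells, was at 9.42 and 9.53 against 6.71 and 6.11 and was higher by 3.06 ± 0.53, and C3H/HeJ was the highest of all 96 strains. In each of these genes the strains were farther apart than the mice of either strain.

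The duct keratins showed the same order. Krt19 was at 5.83 and 5.73 in C3H/HeJ and at 3.71 and 3.42 in CBA/J, a difference of 2.21 ± 0.48. Krt7 was at 5.16 and 5.05 against 3.09 and 3.08, a difference of 2.02 ± 0.36. The keratins that hepatocytes also make, looked at after the others, were not called, with differences of 0.32 (95% interval -0.08 to 0.73) for Krt8 and 0.33 (-0.01 to 0.67) for Krt18. Both C3H/HeJ mice still lay above both CBA/J mice in each, a pattern of 25.9% of all genes. C3H/HeJ ranked 2nd of 96 strains for Krt8 and 1st for Krt18.

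Genes of cell junctions and of the apical surface completed the group. The tight junction genes Cldn7 and Cldn4 were higher by 2.70 ± 0.48 and 1.00 ± 0.25, Cd24a, a small surface glycoprotein, by 2.38 ± 0.48, Muc1, a mucin of apical membranes, by 1.98 ± 0.42, and Spint1, an inhibitor of membrane serine proteases, by 1.22 ± 0.34. The 4 uncalled members also lay above 0. Sox9, a transcription factor of ductal cells, was at 5.28 and 5.77 in C3H/HeJ and at 4.63 and 4.46 in CBA/J, with a difference of 0.98 (95% interval 0.22 to 1.74, adjusted p = 0.28 in limma), and Krt23, Cftr and Cldn6 differed by 0.55, 0.54 and 0.26. With 1 mouse left out, 5 to 8 members were called, and the count was 5 without CBA/J mouse 2, 6 without either C3H/HeJ mouse and 8 without CBA/J mouse 1. Tspan8, Krt19, Muc1, Cldn4 and Spint1 each lost their call without at least 1 mouse. Over the 4 fits that left out a mouse, their differences were 3.02 to 3.82, 2.07 to 2.36, 1.85 to 2.11, 0.93 to 1.06 and 1.09 to 1.34.

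**Figure D2:**
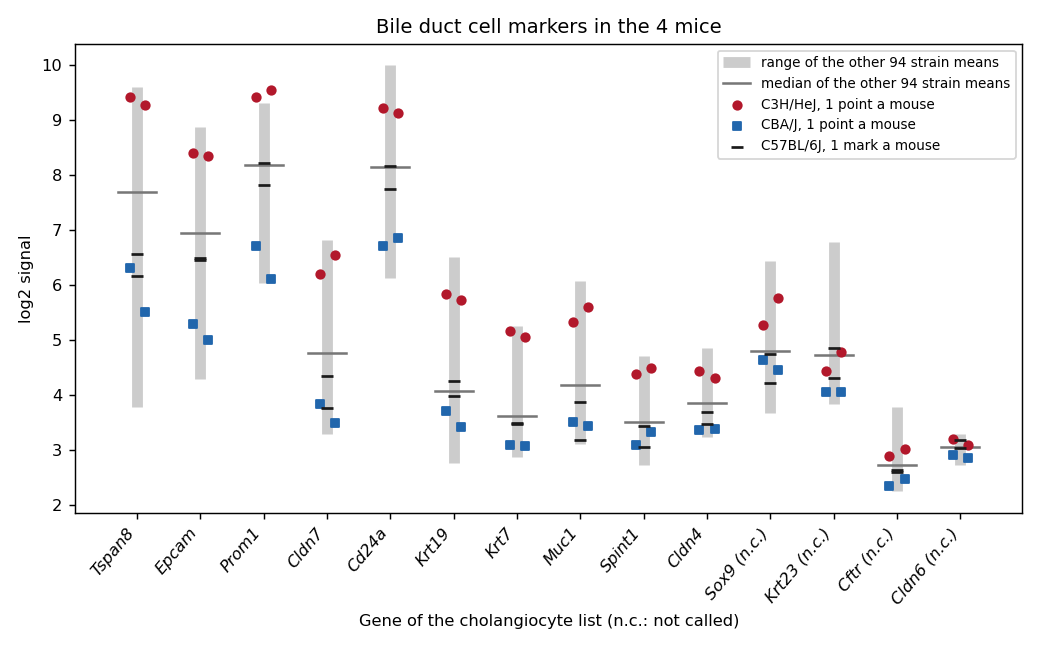
The 14 measured cholangiocyte genes are on the x axis and log2 signal is on the y axis, with red points for the 2 C3H/HeJ mice, blue squares for the 2 CBA/J mice, black marks for the 2 C57BL/6J mice, and a grey bar and line for the range and median of the other 94 strain means. The red points lie above the blue squares in every gene, and the gap narrows from 3.42 in Tspan8 to 0.26 in Cldn6.

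As these genes moved together, the RefSeq promoter windows of the 10 called members were searched on both strands for short motifs of factors known in epithelia. Windows of 300 bases on GRCm38.p6 were given for 8 of the 10 genes, 10 windows in all. The grainyhead-like motif AACCNGTT was found in 3 of the 10 windows, those of Prom1 (2 windows) and Muc1, and in 2.09% of all 32851 promoter windows. The TEAD motif CATTCC was found in 2 windows (Cldn7 and Muc1) and in 14.7% of all windows, and the SOX motif AACAAT in 0 windows and in 10.7% of all. The motifs do not overlap each other in the windows shown, which are that of Muc1 and 1 of the 2 of Prom1, with matches to any of the 3 motifs in capitals, read from 5′ to 3′ on the strand of the gene. A match describes these letters and is no evidence of binding.
Muc1, chr3:89228806-89229105, + strand: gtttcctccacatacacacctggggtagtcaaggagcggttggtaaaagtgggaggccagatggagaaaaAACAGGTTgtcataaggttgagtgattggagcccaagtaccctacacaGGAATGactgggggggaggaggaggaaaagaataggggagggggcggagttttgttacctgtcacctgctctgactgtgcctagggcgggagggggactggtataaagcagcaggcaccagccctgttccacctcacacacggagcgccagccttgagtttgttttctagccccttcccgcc
Prom1, chr5:44101687-44101986, - strand: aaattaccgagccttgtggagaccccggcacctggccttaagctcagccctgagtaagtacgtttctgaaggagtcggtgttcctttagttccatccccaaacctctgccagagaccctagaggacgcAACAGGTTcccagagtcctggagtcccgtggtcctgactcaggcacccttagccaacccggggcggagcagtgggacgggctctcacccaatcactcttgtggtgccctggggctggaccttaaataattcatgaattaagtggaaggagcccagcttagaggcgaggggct

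Over the whole panel the 2 strains lay near opposite ends for this list. The mean of the 14 genes was 5.97 and 6.05 in the C3H/HeJ mice, 4.26 and 4.11 in the CBA/J mice and 4.69 in C57BL/6J. C3H/HeJ ranked 4th of 96 strains and 1st of 29 classical inbred strains, whereas CBA/J ranked 91st of 96 and 29th of 29. The means of the BXH strains, recombinant inbred strains of C57BL/6J and C3H/HeJ, spanned most of this range, from 4.17 in BXH6 over 5.06 in BXH19 and 5.31 in BXH8 to 6.03 in BXH22. Mice of the same strain could lie far apart, at 4.51 and 5.61 in BXH19, 5.50 and 4.32 in RIIIS/J and 5.84 and 4.001 in CXB3. They were closer in BXH6 (4.29 and 4.05), BXH8 (5.25 and 5.38) and BXH22 (6.06 and 5.998). The ranks of strain means therefore rest on few mice and were not tested.

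**Figure D3:**
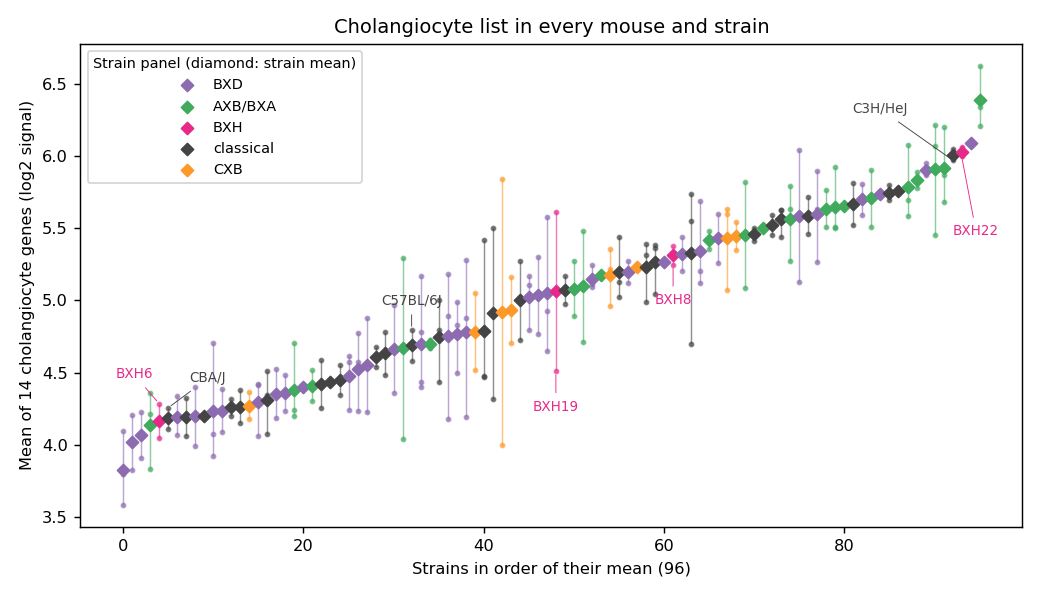
The 96 strains are in order of their mean on the x axis, and the y axis gives the mean log2 signal of the 14 cholangiocyte genes, with small points for mice, diamonds for strain means and colours for strain panels. C3H/HeJ and BXH22 lie at the high end near 6.0, CBA/J and BXH6 lie near 4.2, and some strains have mice far apart.

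Many genes outside the list went with it. Across the means of the other 94 strains, 155 of the 206 other genes called higher (75.2%) had a Pearson correlation of 0.5 or more with the mean of the list, against 11.2% of all genes. Of the genes called lower, 32 of 131 (24.4%) had a correlation of -0.5 or less, against 7.11% of all genes. These points are strain means of 1 to 4 mice that come from 1 array platform, and the recombinant inbred strains share parents, so the correlations are descriptions only. Sftpd, the gene with the largest rise, had a correlation of 0.962 and Scara3, another of the largest rises, of 0.972.

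Several of the 12 largest rises were in genes of secreted proteins, which were not counted over all genes. Sftpd, surfactant protein D, a collectin that binds microbial sugars at mucosal surfaces, was at 8.17 and 8.42 in C3H/HeJ and at 5.03 and 4.41 in CBA/J, a difference of 3.58 ± 0.60 (11.9-fold; adjusted p = 2.5e-05 in limma). Slpi, secretory leukocyte protease inhibitor, was at 10.89 and 10.68 against 7.77 and 7.62, a difference of 3.09 ± 0.58, and C3H/HeJ was 2nd of 96. Spink1, a trypsin inhibitor, was at 6.84 and 7.98 against 5.52 and 3.12, so that the CBA/J mice differed from each other by more than CBA/J mouse 1 differed from C3H/HeJ mouse 1. Its difference of 3.10 ± 0.73 was 1.89 without CBA/J mouse 2, where it was not called (adjusted p = 0.71). The other rises in this set were Scara3 (3.23), Tmem45a (3.22), Gipc2 (3.09), Wfdc18 (3.0) and Gbp2b (2.85). In Tmem45a, Gipc2 and Spink1, C3H/HeJ was the highest strain of all. Most of these genes also went with the cholangiocyte list over the other 94 strains. The correlations were 0.592 for Slpi, 0.886 for Spink1, 0.822 for Tmem45a, 0.887 for Gipc2 and 0.884 for Wfdc18, but -0.173 for Gbp2b. Gipc2 was not called without CBA/J mouse 2, where its difference was 2.58. Gbp2b, an interferon-induced GTPase gene, was not called without any 1 of the 4 mice, although its difference stayed at 2.81 to 2.89.

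Gbp2b and the 5 genes with the smallest p, Meox2, Ppp1r21, Pm20d1, Nme7 and Lin7c, varied in how they went with the duct genes over the strains. Gbp2b was at 6.16 and 6.08 in C3H/HeJ and at 3.25 and 3.29 in CBA/J, and its correlation with the list over the other 94 strains was -0.173. Ppp1r21, an endosomal protein gene, was at 8.70 and 8.78 in C3H/HeJ and at 7.69 and 7.58 in CBA/J, a difference of 1.11 ± 0.08 (adjusted p = 2.4e-21 in limma), and the other 94 strains reached no higher than 8.00. Nme7, a gene of the nucleoside diphosphate kinase family, was at 8.06 and 8.09 against 6.50 and 6.41, a difference of 1.62 ± 0.17. It was called in 1 of its 3 probe sets. Over the other 94 strains the correlations with the list were -0.168 for Ppp1r21, 0.182 for Nme7, -0.0522 for Meox2, -0.0489 for Lin7c and -0.602 for Pm20d1.

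The next genes were chosen after their values were seen and belong to no list that was counted, so they stand for no group. Itga8, the integrin alpha 8 chain of fibroblast-like cells, was at 8.54 and 8.90 in C3H/HeJ and at 7.16 and 6.42 in CBA/J, a difference of 1.93 ± 0.33. Col8a1 differed by 1.78 ± 0.25, Tgfb3, a ligand of the TGF-beta family, by 1.55 ± 0.22, and Hbegf, a ligand of the EGF receptor, by 1.69 ± 0.29, each with C3H/HeJ as the highest strain. Only 1 of the 3 probe sets of Col8a1 was called, and the lowest of their differences was 0.05. Mgp, Mmp2, Svep1, Itgbl1 and Col4a5 were higher by 2.17, 1.60, 1.50, 2.16 and 2.13 and also highest in C3H/HeJ. Each of these 5 lost its call with at least 1 mouse left out. Each did so without CBA/J mouse 2, where the differences were 2.22, 1.25, 1.32, 1.92 and 1.93. Amotl1 was higher by 1.28 ± 0.19, and by 1.18 to 1.39 with 1 mouse left out. Only 1 of its 3 probe sets was called, and the lowest of their differences was 0.05. Ankrd1, a gene known to respond to YAP, was higher by 2.08 ± 0.37 with both probe sets called, and by 1.74 to 2.42 with 1 mouse left out. Ccn2, another such gene, was higher by 1.81 ± 0.48 and was called only without CBA/J mouse 1, of the 4 fits that left out a mouse (adjusted p of 0.11 to 0.72 in the others).

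The stellate cell and matrix list as a whole was mixed. Of 27 measured genes, 1 was called higher (1.26% of all genes) and 2 lower (0.766%), and the median was 0.34. Loxl1, a cross-linking enzyme of elastic fibres, was at 7.31 and 7.44 in C3H/HeJ and at 5.86 and 5.50 in CBA/J, a difference of 1.70 ± 0.42 (adjusted p = 0.015 in limma). It was not called without any 1 of the 4 mice (adjusted p of up to 0.34), nor as the mean of its 2 probe sets (0.87, adjusted p = 0.059). Ecm1, an extracellular matrix protein gene of stellate cells, was lower by 1.07 on the log2 scale and was not called without C3H/HeJ mouse 1 or CBA/J mouse 2 (adjusted p = 0.20 and 0.26). The fibrillar collagens Col1a1 and Col3a1 differed by 0.87 (95% interval 0.01 to 1.73) and 0.46 (-0.12 to 1.05) and were not called.

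The genes lower in C3H/HeJ were of several kinds. Ctse, cathepsin E, an aspartic protease, had the largest difference of all genes: 3.54 and 3.41 in C3H/HeJ and 9.64 and 9.85 in CBA/J, a difference of -6.27 ± 0.75 (adjusted p = 5.5e-10 in limma). The C3H/HeJ level lay near the array medians, so -6.27 may understate the difference. In the 220 mice Ctse lay on 2 levels, with 131 mice at 4.56 or below and 89 at 6.28 or above. C57BL/6J was on the low level at 3.27, so that the CBA/J offspring were high with 1 C57BL/6J copy. Pm20d1, which encodes an enzyme that makes N-acyl amino acids, lies close to Ctse on chromosome 1, with 1 measured gene between them. It was at 8.01 and 8.17 against 9.92 and 9.85, a difference of -1.79 ± 0.18, and CBA/J was the highest strain.

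Meox2, a homeobox transcription factor gene, was high in CBA/J alone. It was at 2.73 and 2.82 in C3H/HeJ and at 5.01 and 5.74 in CBA/J, a difference of -2.59 ± 0.15 with the smallest p of all (adjusted p = 8.5e-31 in limma), while the other 94 strain means lay between 2.42 and 3.09, below the array medians as C3H/HeJ did. Both of its probe sets were called lower. Fabp7, a fatty acid binding protein gene, showed the opposite position: it was at 6.93 and 6.38 in C3H/HeJ, the lowest of 96 strains, and at 8.34 and 8.74 in CBA/J, which ranked 33rd. Lin7c, a scaffold protein gene, was likewise lowest in C3H/HeJ, with 6.42 and 6.47 against 7.59 and 7.37, but only 1 of its 4 probe sets was called, and their mean was not (-0.28, adjusted p = 0.19).

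Colec10, collectin liver 1, a secreted lectin that stellate cells make, was at 5.11 and 5.18 in C3H/HeJ and at 7.87 and 7.98 in CBA/J, a difference of -2.79 ± 0.40 (adjusted p = 4.1e-07 in limma), and C3H/HeJ ranked 95th of 96. Its partner Colec11, collectin kidney 1, which like Tnfrsf11b was chosen after its values were seen, was at 6.92 and 7.26 against 8.04 and 7.84, a difference of -0.85 ± 0.16, and was lowest in C3H/HeJ. Colec11 was not called without C3H/HeJ mouse 1 (adjusted p = 0.11). Tnfrsf11b, the osteoprotegerin gene next to Colec10 on chromosome 15, was also called lower (-1.29 ± 0.30), in 1 of its 2 probe sets. The other probe set differed by -0.40. The C3H/HeJ mice were at 2.81 and 3.10, below the array medians. Tnfrsf11b was not called without CBA/J mouse 2, where it differed by -0.81, nor without C3H/HeJ mouse 1 (-1.14).

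Other large falls were smaller or less stable. Sult2a8, a sulfotransferase gene of hepatocytes, was at 7.95 and 7.88 in C3H/HeJ and at 9.69 and 10.31 in CBA/J, and the zinc finger gene Zfp949 was at 4.26 and 4.30 against 6.04 and 5.88 in its first-ranked probe set, with both probe sets called. Mcoln3, a lysosomal cation channel gene, and Rgs1, a regulator of G protein signalling in leukocytes, were lower by 1.54 and 1.53 on the log2 scale. Sult2a8, Mcoln3 and Rgs1 were not called without CBA/J mouse 2 (adjusted p = 0.33, 0.33 and 0.51), nor without C3H/HeJ mouse 1 (adjusted p = 0.10, 0.41 and 0.50). Ifi202b, an interferon-activated gene, was at 8.63 and 8.96 in CBA/J, and its difference of -3.24 was -1.13 without C3H/HeJ mouse 1 (adjusted p = 0.80) and -5.36 without mouse 2 (adjusted p = 1.9e-10). Slc24a4, chosen after its values were seen, rested on 1 mouse: it was at 5.41 in CBA/J mouse 1 and at 2.81 in mouse 2, against 2.82 and 2.78 in C3H/HeJ, and its difference of -1.31 was -0.01 without CBA/J mouse 1.

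**Figure D4:**
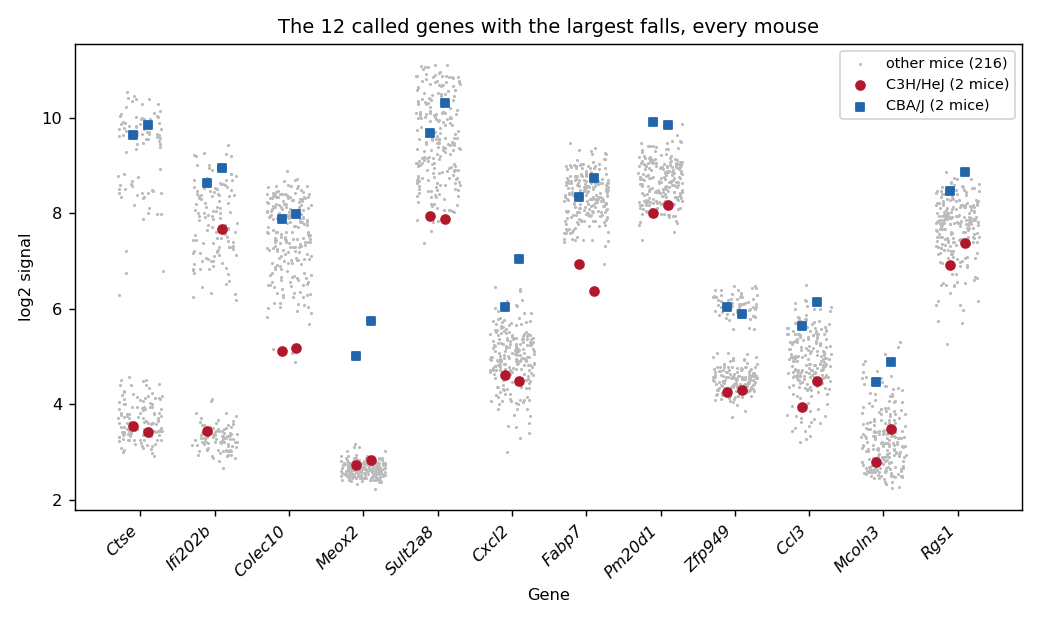
The x axis gives the 12 called genes with the largest falls and the y axis log2 signal in each of the 220 mice, with C3H/HeJ in red, CBA/J in blue and the other 216 mice in grey. CBA/J lies above all other mice in Meox2, Ctse lies on separate levels, and the C3H/HeJ mice lie on different levels of Ifi202b.

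The receptor that sets C3H/HeJ apart and its partners did not pass the test. Of the 9 measured genes of the TLR4 receptor and adaptor list, 0 were called, and their median difference was -0.02. At an unadjusted p under 0.05, 2059 of all 17097 genes passed. Tlr4 itself was at 4.89 and 5.32 in C3H/HeJ and at 5.57 and 5.24 in CBA/J, a difference of -0.30 (95% interval -0.81 to 0.20), with overlapping mice. An array signal measures the transcript and not whether its product works, so it does not check the Tlr4 genotype. Ly96 differed by -0.01 (-0.50 to 0.47), Lbp by -0.19 (-0.63 to 0.25) and Cd14 by 0.41 (-0.51 to 1.33), so a 2-fold change of Cd14 lay within its interval. Among the adaptors, Myd88 differed by -0.22 (-0.46 to 0.02), Tirap by -0.02 (-0.29 to 0.26) and Ticam1 by -0.02 (-0.41 to 0.37).

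Downstream of the receptor, LPS-induced genes included some that were lower in C3H/HeJ. Of 39 measured, 4 were called lower, against 0.766% of all genes, and 1, Slpi, was called higher, and their median was -0.36. The 2 C3H/HeJ mice lay below both CBA/J mice in 21 of the 39, a pattern of 22.1% of all genes. The mean of the list was 6.14 and 6.22 in the C3H/HeJ mice, 6.32 in CBA/J mouse 1 and 6.77 in CBA/J mouse 2. The value of CBA/J mouse 2 was the highest of all mice in the series, whose median was 6.24. Much of the gap between the strains in this mean therefore lay in CBA/J mouse 2. Cxcl2, a chemokine that draws neutrophils, was at 4.61 and 4.48 in C3H/HeJ and at 6.03 and 7.04 in CBA/J, the highest of 96 strains, a difference of -1.99 ± 0.45 (adjusted p = 0.0042 in limma). Ccl3, a macrophage chemokine, was at 3.93 and 4.50 against 5.63 and 6.14, a difference of -1.67 ± 0.39. Il1a, interleukin 1 alpha, and Ptgs2, the inducible cyclooxygenase, were lower by 0.90 and 0.86 on the log2 scale. Ptgs2 was near or below the array medians in all 4 mice (2.55 and 2.87 against 3.38 and 3.76), 1 of its 2 probe sets was called while the other differed by 0.13, and their mean was not called (-0.36, adjusted p = 0.15). For Cxcl2 the distance from the rest was on the CBA/J side, since C3H/HeJ ranked 80th and the median of the other strains was 4.99.

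These calls were lost in some fits that left out 1 mouse, in which the SE was also larger. Cxcl2 had an SE of 0.45 with all 4 mice and of 0.54 to 0.55 in those fits. Its difference was -2.06 without C3H/HeJ mouse 1 and -1.49 without CBA/J mouse 2. Without C3H/HeJ mouse 1 or without CBA/J mouse 2, 0 of the LPS-induced genes were called lower, and 3 were called without either of the other mice. Without CBA/J mouse 2 the adjusted p was 0.43 for Cxcl2, 0.34 for Ccl3, 0.21 for Il1a and 0.45 for Ptgs2. Most well-known LPS responses were not called, among them Tnf at -0.55 (95% interval -1.04 to -0.05), Il1b at -0.40 (-1.12 to 0.32), Ccl2 at -0.63 (-1.59 to 0.34) and Cxcl10 at -0.43 (-1.49 to 0.63). The macrophage and Kupffer cell list, whose cells make several of these products, had 2 of 27 genes called lower (0.766% of all genes), Msr1 (-0.80) and Cd5l (-0.63), with a median of -0.13. Msr1 was not called without any 1 of the 4 mice, with differences of -0.85 to -0.76. Cd5l was not called without C3H/HeJ mouse 1 or CBA/J mouse 2, with differences of -0.52 and -0.58. The part of macrophage content in the chemokine values was not tested.

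**Figure D5:**
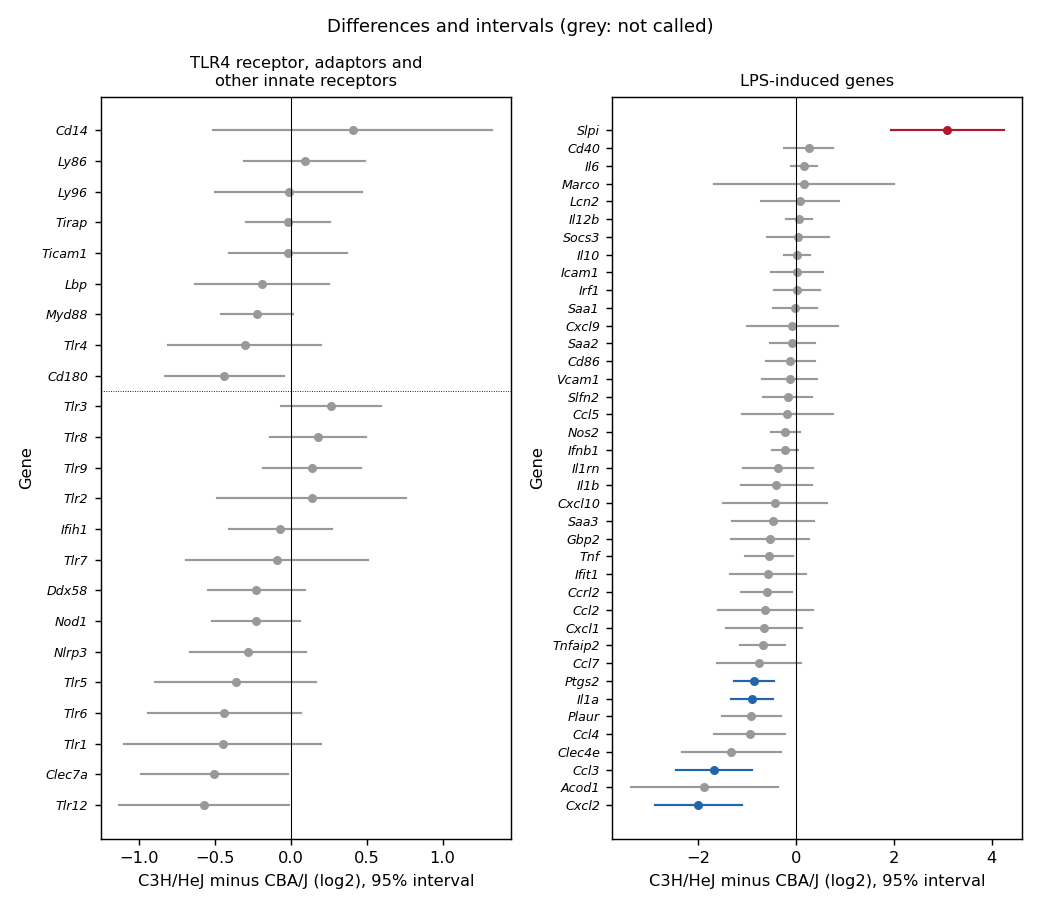
Differences between C3H/HeJ and CBA/J in log2 with 95% intervals are shown for TLR4 receptor and adaptor genes (left, above the dotted line), other innate receptors (left, below it) and LPS-induced genes (right), with genes not called in grey, called higher in C3H/HeJ in red and called lower in blue. All of the left panel is grey, and Cxcl2, Ccl3, Il1a and Ptgs2 are blue.

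Other lists of innate defence held few calls. Of 30 genes that carry the TLR4 signal to NF-kB and IRF3, of 14 other Toll-like and innate receptors and of 21 acute phase genes, 0 were called in each, with medians of -0.01, -0.23 and -0.05. The acute phase genes Saa1 and Saa2 differed by -0.01 and -0.07, and Lcn2, which TLR4 can induce, by 0.08 (95% interval -0.72 to 0.88). Of 35 interferon response genes, 1, Ifi202b, was called lower (0.766% of all genes) and 3 lay above 0, with a median of -0.32. The mean of the 35 genes was 7.26 and 7.97 in C3H/HeJ mice 1 and 2 and 7.72 and 8.25 in the CBA/J mice. C3H/HeJ mouse 1 was lower than mouse 2 in Oas2 of this list (5.53 and 6.79), and in Slfn4 (4.59 and 6.57), chosen after its values were seen, and neither gene was called.

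Of 17 measured endothelial genes, 2 were called lower in C3H/HeJ, against 0.766% of all genes, 1 lay above 0, and the median difference was -0.39. Cdh5, VE-cadherin, was at 4.79 and 4.89 in C3H/HeJ and at 5.69 and 5.87 in CBA/J, a difference of -0.94 ± 0.22, and Clec1b, a lectin of sinusoidal cells, was lower by 0.87 on the log2 scale. Neither was called without CBA/J mouse 2 (adjusted p = 0.22 and 0.11) or C3H/HeJ mouse 1 (0.13 and 0.60), nor was the mean of the 2 probe sets of Cdh5 (-0.46, adjusted p = 0.051). Plvap, which forms the diaphragms of endothelial fenestrae and was chosen after its values were seen, was at 7.72 and 7.68 against 8.71 and 9.09, a difference of -1.20 ± 0.16 (adjusted p = 8.0e-08 in limma). C3H/HeJ was the lowest and CBA/J the highest of 96 strains for Plvap.

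The hepatocyte list had 0 of 11 genes called and a median of -0.02, and 0 were called in cholesterol synthesis (19 genes), bile acid synthesis and transport (25), fatty acid synthesis (19), the urea cycle (16) and the clock (17). In xenobiotic metabolism 3 of 45 genes were called higher (1.26% of all genes) and 1 lower (0.766%). Cyp2f2, a cytochrome P450 of periportal hepatocytes, was at 9.74 and 9.90 in C3H/HeJ and at 11.03 and 11.22 in CBA/J, a difference of -1.30 ± 0.29, and Aox3, an aldehyde oxidase, was at 10.15 and 10.23 against 9.28 and 9.03 and was lowest of 96 strains in CBA/J. Cyp2c55 and Ugt2b34 were higher by 1.75 and 0.34, and neither was called without any 1 of the 4 mice (adjusted p of up to 0.49 and 0.42). Cyp2f2 was not called without C3H/HeJ mouse 1 or CBA/J mouse 2 (adjusted p = 0.11 and 0.14).

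Apoa5, which raises the clearance of plasma triglyceride, was lower in C3H/HeJ by 0.59 on the log2 scale, with 11.08 and 10.82 against 11.51 and 11.58, and C3H/HeJ was the lowest strain. Pltp, the phospholipid transfer protein of plasma lipoproteins, differed by -0.75 and by -0.41 without C3H/HeJ mouse 1 (adjusted p = 0.86). Slc25a20 and Acaa2, mitochondrial fatty acid oxidation genes and PPAR alpha targets, were lower by 0.50 and 0.32 on the log2 scale. Apoa5 was not called without C3H/HeJ mouse 2 or CBA/J mouse 2 (adjusted p = 0.26 and 0.13). Slc25a20 and Pltp were each called without 1 of the 4 mice (CBA/J mouse 1 and C3H/HeJ mouse 2), and the adjusted p of Slc25a20 reached 0.68 in the other fits. Acaa2 was not called without any 1 of the 4 mice (adjusted p of 0.059 to 0.58). The cell cycle list had 0 of 19 genes called, although 17 lay above 0 and the median was 0.63, as with Mki67 at 1.28 (95% interval 0.17 to 2.39) and Top2a at 1.22 (0.24 to 2.20).

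The called genes were spread over the genome. Of 345 called genes with a position in RefSeq, 19 (5.51%) lay next to another called gene among the measured genes, against 3.96% of the genes not called. Chromosome 9 held the most, 41 of its 954 measured genes (4.3%, against 2.03% of all genes), with 24 higher and 17 lower. At its start, Casp12 and Pdgfd, chosen after their values were seen, were neighbours and were higher by 2.21 ± 0.41 and 2.59 ± 0.45, and both also went with the duct genes over the other strains (correlations of 0.913 and 0.925). Casp12 was 1.42 without CBA/J mouse 2, where it was not called (adjusted p = 0.36).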

How the data were processed

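Left liver lobe RNA was measured on an HT MG-430 PM array (Affymetrix) for each mouse. The deposited values are log2 signals that the authors obtained by robust multi-array averaging, and GCOS and RMA are credited in the submitters' processing notes, with versions not given. Array medians ran from 3.43 to 3.57, and precision is limited by how few arrays there are. Of 45141 probe sets, 104 controls were left out. The platform annotation gave 28898 probe sets 1 gene symbol and 551 several, which were not named, and left 15588 unnamed. Each of 17097 genes was represented by its probe set of highest mean in the 220 mice. RefSeq (GRCm38.p6) gave names, the order of genes and promoters. A strain with a variant where a probe binds can show too low a signal.

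Groups were the strains of the labels, and mice were numbered in accession order. Nothing says which mice shared a litter or a day, so these were not modelled. The p-values weigh a difference against the spread between mice within strains, pooled over all strains in the fit. limma 3.58.1 (R 4.3.3) fitted 1 mean per strain to 211 mice of 87 strains (124 residual degrees of freedom) with eBayes. Two-sided p-values were corrected by Benjamini-Hochberg over 45037 probe sets, and errors of differences are the SE of this fit. Tested on simulated data of the same size for this comparison, the fit recovered 87 of 100 differences of 1 and 100 of 100 of 2 (log2), with 11 false calls. The simulated noise was normal, independent between probe sets and of equal spread in all strains. Real genes can move together within a strain, so the figures check the fit and not the reliability of the calls. The genes named were the 12 largest called rises and falls, the 5 smallest p, TLR4 genes and checks, and up to 4 called members of each list; other genes are members of a counted list or were chosen after their values were seen. Members, lists and motifs were chosen with earlier results of these data known. Alternatives left out each mouse, took other strains for the spread, and changed the moderation, the filter, centring, array weights and the summary of probe sets.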

Additional observations from a re-analysis of the deposited data

How the results depend on the processing

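Leaving out 1 of the 4 mice left between 144 and 335 probe sets and between 84 and 216 genes called, between 5 and 8 cholangiocyte genes called higher, and between 0 and 3 LPS-induced genes called lower. A strain then has 1 mouse, assumed to vary like the others, and the SE is mostly larger. A lost call therefore does not by itself show that it rested on the mouse left out. Array weights gave 1680 probe sets and 909 genes. The weights of the 4 mice ran from 1.28 to 1.45, and the cause of the higher counts was not tested. Under the other alternatives (spread from the 4 mice alone, from classical strains or from strains with mice far apart in label number, eBayes with trend and robust, only probe sets above the median signal, centred arrays, the mean of all probe sets) between 341 and 474 genes were called, with 10 or 11 cholangiocyte genes higher and 3 or 4 LPS-induced genes lower. The counts for both lists were followed after seeing the data. The place of the pair was 30 instead of 41 with probe sets above the median signal. Of 87 called genes followed by name, 39 kept their call with any 1 mouse left out, and none changed direction. With the spread of the 4 mice alone, 13 were not called, among them Ifi202b (adjusted p = 0.24) and Spink1 (0.086). Uncalled genes near 0 changed sign: with 1 mouse left out, Alb ranged from -0.00178 to 0.143, Ticam1 from -0.131 to 0.0908, Ly96 from -0.0899 to 0.0627, Tirap from -0.0661 to 0.0282 and Lbp from -0.463 to 0.086. No paired analysis was possible because the labels give no replicate numbers that the strains share.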

Other observations

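Both genes given here were chosen after their values were seen. Sult3a1, a sulfotransferase gene, was at 2.77 in CBA/J mouse 1 and at 7.62 in mouse 2, against 2.05 and 2.51 in the C3H/HeJ mice, and was not called (difference of -2.91 ± 0.97, SE; adjusted p = 0.14 in limma). Cpe, carboxypeptidase E, a processing enzyme of peptide hormones, was at 5.78 and 4.56 in C3H/HeJ and at 2.97 and 2.46 in CBA/J, a difference of 2.46 ± 0.34, and the other 94 strain means reached no higher than 3.91.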
